A study of Homo sapiens with 6 samples.

Results

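The 10 genes described here encode albumin and the plasma carrier proteins that hepatocytes secrete beside it, and they were chosen by symbol: ALB, GC, TTR, SERPINA7, SERPINA6, RBP4, TF, AHSG, SERPINA1 and AMBP. All 10 were measured, among 16305 genes in all. Huh7-R cells, a pool of human hepatocellular carcinoma cells of the Huh7 line made resistant to sorafenib by long-term exposure, were treated for 24 h with fostamatinib (3 samples) or with DMSO, its solvent (3 samples). Fostamatinib is an inhibitor of the spleen tyrosine kinase SYK, a protein that the study did not detect in Huh7 cells. The dose is labelled 2 µM, for the DMSO samples as well. Both groups therefore shared the resistant background, and per the study's methods sorafenib had been withdrawn from the medium before the experiments. Treatments were labelled as triplicates with no word on separate cultures, so each p-value measures the spread between these samples, which may be technical. Messenger RNA was sequenced, and levels are given as log2 CPM, the log2 of a gene's reads scaled to a common library size.

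Plasma carriers keep poorly soluble or reactive cargo in circulation. Albumin binds fatty acids, bilirubin and many drugs. Vitamin D, thyroid hormones, cortisol, retinol and iron each travel on a dedicated carrier, and other secreted liver proteins inhibit proteases or bind mineral. Hepatocytes are the main source of these proteins, and in hepatocyte-like tumour lines their genes are read as part of the liver programme, driven by factors such as those of the HNF4, FOXA and C/EBP families.

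After fostamatinib, 9 of the 10 carrier genes rose (limma, adjusted p under 0.05) and 0 fell. Over all genes tested, 23.3% were called higher and 24.5% lower, so the carriers' count stood beside a background of changes in both directions. All 10 log2 fold changes were positive, so none could be lower at an unadjusted p under 0.05 either. The estimates were unchanged without a mean-variance trend and stayed positive in limma-voom, so neither could call a carrier lower. The median log2 fold change of the 10 genes was 0.60, against 0.0015 over all genes, and 1769 genes (10.8%) had a log2 fold change at least as high as that median. In all 10 genes every fostamatinib sample lay above every DMSO sample, a pattern found in 26.8% of all genes. For SERPINA6 this rests on the scaling to library size, as DMSO sample 1 and fostamatinib sample 3 both had 9 reads. The rises were moderate: log2 fold changes of the called genes ran from 0.29 for ALB to 1.01 for AMBP, and only the point estimates for GC and AMBP exceeded 2-fold.

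**Figure D1:**
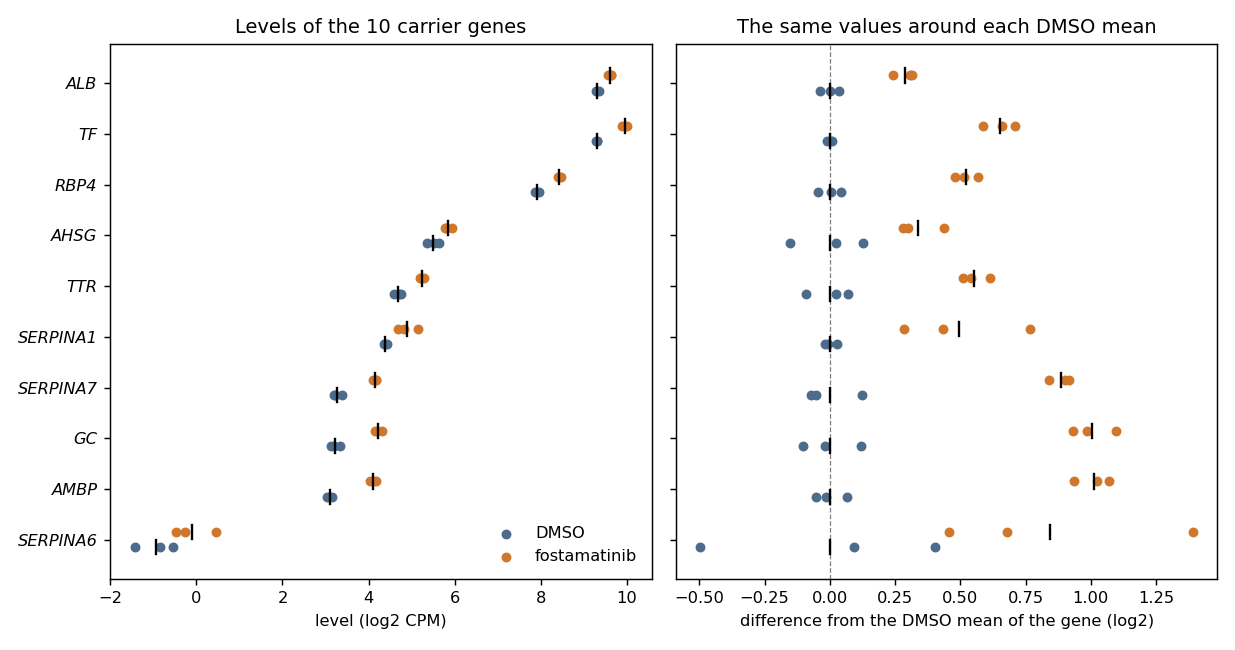
Left, levels of the 10 carrier genes in each of the 6 samples (log2 CPM); right, the same values as differences from the DMSO mean of the gene (log2); dots are samples and black ticks group means. All 3 fostamatinib dots lie to the right of all 3 DMSO dots for each gene, with the widest scatter for SERPINA6 and, after fostamatinib, SERPINA1.

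The libraries held 13303451 to 15272737 reads on the genes kept by the authors' filter, and no library stood apart. Replicates of a group differed by a chi-square per degree of freedom of 1.65 to 3.74, above sampling noise, and samples of different groups by 39.8 to 44.5. The hepatocyte markers APOA1, APOA2, APOB, APOC3, FGA, FGB and FGG were all measured, and their summed level was 2783 to 3064 CPM in DMSO and 4852 to 5192 CPM after fostamatinib, with 7 of 7 called higher (APOB, at 0.21, not without the mean-variance trend, adjusted p = 0.0916). Of 12 markers of blood, endothelial and stromal cells, 5 were measured and the others were not analysed here. Their summed level was 302 to 311 CPM in DMSO and 315 to 318 CPM after fostamatinib, most of it COL1A2 and LUM. Of the 5, PECAM1 (0.51), COL1A2 (0.37) and LYVE1 (0.80) were called higher and LUM (-0.40) lower, and COL1A1 did not pass the test, so the sum joins changes in opposite directions. Beside the counts of both marker lists, 23.3% of all genes were called higher and 24.5% lower. The part of these markers in the carriers' rise was not tested. In bulk RNA, a change in the number of cells making a transcript and a change in transcript per cell cannot be told apart.

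The bases just before the transcription start are shown for 5 carrier genes, of which all but SERPINA6 were called higher. These stretches hold short elements known from liver promoters, among them those of the FOXA and HNF4 families. The AMBP window also holds a FOXA element and is not shown. RefSeq windows of 250 bases, on build GRCh38.p14, were found for 8 of the 10 genes, with the most downstream start used where several are listed (TF, RBP4 and SERPINA1). ALB is chr4:73404037-73404286 on the plus strand, SERPINA7 chrX:106038728-106038977 on the minus strand, SERPINA6 chr14:94323337-94323586 on the minus strand, SERPINA1 chr14:94388603-94388852 on the minus strand and AHSG chr3:186612810-186613059 on the plus strand. Sequences run 5′ to 3′ toward the start of the gene, and capitals mark matches on either strand to GTTAAT (a short element known from liver promoters), TGTTTAC or TGTTTGC (FOXA) and CAAAGTCCA (HNF4).
ALB: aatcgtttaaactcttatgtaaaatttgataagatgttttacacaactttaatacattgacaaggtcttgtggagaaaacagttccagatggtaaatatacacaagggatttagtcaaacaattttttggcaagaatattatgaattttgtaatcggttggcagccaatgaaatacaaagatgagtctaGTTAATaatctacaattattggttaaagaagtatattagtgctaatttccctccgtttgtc
SERPINA7: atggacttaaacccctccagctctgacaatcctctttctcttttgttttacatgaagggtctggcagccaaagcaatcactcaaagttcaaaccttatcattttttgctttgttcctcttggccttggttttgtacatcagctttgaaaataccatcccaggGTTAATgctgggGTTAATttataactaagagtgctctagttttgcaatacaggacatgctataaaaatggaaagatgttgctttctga
SERPINA6: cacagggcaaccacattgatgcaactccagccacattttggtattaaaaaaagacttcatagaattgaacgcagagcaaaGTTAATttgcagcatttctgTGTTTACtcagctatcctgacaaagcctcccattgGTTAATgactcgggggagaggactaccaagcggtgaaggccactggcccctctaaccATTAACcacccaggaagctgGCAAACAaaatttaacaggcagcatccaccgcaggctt
SERPINA1: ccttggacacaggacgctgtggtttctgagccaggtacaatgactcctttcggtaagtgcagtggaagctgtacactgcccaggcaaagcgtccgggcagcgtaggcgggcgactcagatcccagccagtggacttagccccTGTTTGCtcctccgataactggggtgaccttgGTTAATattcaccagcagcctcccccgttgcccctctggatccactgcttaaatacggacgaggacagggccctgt
AHSG: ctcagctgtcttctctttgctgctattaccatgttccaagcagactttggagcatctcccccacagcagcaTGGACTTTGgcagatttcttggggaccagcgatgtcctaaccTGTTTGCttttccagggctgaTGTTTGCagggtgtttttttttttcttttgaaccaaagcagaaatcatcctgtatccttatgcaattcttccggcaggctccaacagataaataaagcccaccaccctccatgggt

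GTTAAT was present in 4 of the 8 windows and in 6.23% of 35116 windows of all genes. In ALB it lies 61 to 56 bases before the start, in SERPINA1 at 76 to 71, and in SERPINA7 both at 88 to 83 and at 76 to 71. SERPINA6 has 3 matches, at 170 to 165, 115 to 110 and, on the other strand, 58 to 53 bases before the start. TGTTTGC was found in AHSG, AMBP, SERPINA1 and SERPINA6 (3.23% of all windows), TGTTTAC in SERPINA6 alone of the 8 (2.98%), and CAAAGTCCA in AHSG alone of the 8 (0.325%). TTNNGNAA, a loose form of the C/EBP element, was in 6 of 8 windows and in 33.2% of all windows. TATAAA was in RBP4 and SERPINA7 (10.7% of all windows), and the SERPINA7 match on the other strand, at 71 to 66, shares a base with the GTTAAT before it. The windows also differ widely in composition, with the lowest share of G and C in ALB, 74.8% in RBP4 and a median of 58.0% over all windows. These matches are letters in a window and say nothing of binding. The windows of RBP4 and TF hold none of the letters marked in capitals above, and both genes rose.

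ALB (ENSG00000163631, GRCh37 chr4:74262831-74287199, plus strand) encodes serum albumin, the most abundant plasma protein. DMSO samples measured 9.28, 9.32 and 9.35 log2 CPM and fostamatinib samples 9.56, 9.63 and 9.62, from 8568 to 11313 reads a sample. The groups did not overlap, and the gap between them was several times the spread within either (SD 0.036 and 0.041, n = 3 each). The log2 fold change was 0.29 (SE 0.034, 95% interval 0.22 to 0.36, adjusted p = 8.6e-09), a level 22.1% higher. The interval overlapped that of AHSG, whose estimate was below that of ALB without DMSO sample 3 (0.26 against 0.31) or fostamatinib sample 1 (0.29 against 0.31). Its relative AFP, alpha-fetoprotein, the fetal counterpart that hepatocellular carcinoma lines often make, rose by 0.31 (SE 0.033, adjusted p = 4.7e-10). Within each sample AFP stood 1.58 ± 0.037 log2 units above ALB in DMSO and 1.61 ± 0.012 after fostamatinib (SD, n = 3). That shift of 0.026 was within the overlap of the groups (two-sided exact permutation p = 0.30, 0.333 after adjustment over 10 pairs of genes).

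GC (ENSG00000145321, GRCh37 chr4:72607413-72669758, minus strand) is the vitamin D binding protein and belongs to the albumin family. Its DMSO samples measured 3.34, 3.12 and 3.20 log2 CPM and its fostamatinib samples 4.15, 4.20 and 4.31, from 132 to 263 reads a sample. The lowest fostamatinib sample was well above the highest DMSO sample. GC rose by 1.004 on the log2 scale (SE 0.099, 95% interval 0.80 to 1.21, adjusted p = 1.4e-10), so that its level relative to ALB moved from -6.10 to -5.38 log2 units. AFM, afamin, the remaining relative in the family and a carrier of vitamin E, had 2, 3 and 2 reads in DMSO and 13, 9 and 18 after fostamatinib. It rose by 2.34 (SE 0.51, adjusted p = 2.1e-04), with an error to match so few reads. All 4 genes of the family that were measured therefore rose, by amounts whose intervals for ALB and GC did not meet.

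TTR (ENSG00000118271, GRCh37 chr18:29136972-29178796, plus strand) is transthyretin, which carries thyroxine and holds the retinol carrier in a complex too large for the kidney to filter. It measured 4.60, 4.71 and 4.76 log2 CPM in DMSO and 5.20, 5.30 and 5.23 after fostamatinib. The groups were separate, and TTR rose by 0.55 (SE 0.069, 95% interval 0.41 to 0.69, adjusted p = 2.4e-08). RBP4 (ENSG00000138207, GRCh37 chr10:95351444-95361501, minus strand) is that retinol carrier, and its samples measured 7.87, 7.96 and 7.92 in DMSO and 8.40, 8.48 and 8.43 after fostamatinib. RBP4 rose by 0.52 (SE 0.039, 95% interval 0.44 to 0.60, adjusted p = 1.1e-13), again without overlap. The balance of the partners within a sample, TTR minus RBP4, was -3.23 ± 0.058 in DMSO and -3.20 ± 0.010 after fostamatinib (SD, n = 3). The groups overlapped, and the shift of 0.033 gave an exact permutation p of 0.40.

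SERPINA7 (ENSG00000123561, GRCh37 chrX:105276426-105282718, minus strand) encodes thyroxine-binding globulin, the high-affinity thyroid hormone carrier, a serpin that no longer inhibits proteases. Levels were 3.19, 3.39 and 3.21 log2 CPM in DMSO and 4.16, 4.18 and 4.10 after fostamatinib. The 3 fostamatinib values were close together and all far above DMSO, and SERPINA7 rose by 0.89 (SE 0.098, 95% interval 0.69 to 1.09, adjusted p = 2.1e-09). SERPINA7 gained on TTR within the samples, from -1.43 ± 0.11 to -1.09 ± 0.053 log2 units (SD, n = 3), with no overlap. The exact permutation p of that shift was 0.10 (0.125 adjusted over 10 pairs), the smallest that 3 against 3 samples allow.

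SERPINA6 (ENSG00000170099, GRCh37 chr14:94770585-94789726, minus strand), the cortisol carrier transcortin, was the carrier gene that was not called. It had 9, 8 and 5 reads in DMSO and 11, 19 and 9 after fostamatinib, or -0.54, -0.84 and -1.43 against -0.26, 0.45 and -0.48 log2 CPM. The highest DMSO and the lowest fostamatinib sample nearly touched, with 9 reads each. Its log2 fold change of 0.84 had an interval from 0.0064 to 1.68 and did not pass the test (adjusted p = 0.0912), and without single samples it ran from 0.57 to 1.04 with adjusted p up to 0.361. The interval includes the size of change seen in SERPINA7 and reaches almost to 0. SERPINA6 was also the only carrier gene below 10 reads in a sample. With genes of at least 10 reads in every sample alone, 9 of 9 carriers rose, where 26.4% of the 13287 genes were called higher.

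TF (ENSG00000091513, GRCh37 chr3:133464884-133515485, plus strand) is transferrin, which delivers iron to cells. It had the tightest DMSO values, at 9.29, 9.31 and 9.31 log2 CPM, and 9.89, 10.01 and 9.96 after fostamatinib, from 8641 to 14733 reads a sample. TF rose by 0.65 (SE 0.034, 95% interval 0.58 to 0.72, adjusted p = 9.5e-18), the smallest p among the carriers. In DMSO, TF and ALB took almost the same number of reads, with TF minus ALB at -0.012 ± 0.025 log2 units, and after fostamatinib TF led by 0.35 ± 0.026 (SD, n = 3). All 3 fostamatinib samples lay above all DMSO samples (exact permutation p = 0.10, the smallest possible). TFRC, the transferrin receptor, moved the other way and fell by 0.50 (SE 0.040, adjusted p = 6.3e-13). TF minus TFRC within the samples thus went from 0.0084 ± 0.088 to 1.16 ± 0.048. The TF locus overlaps SRPRB on the same strand, a gene that fell by 0.38 (adjusted p = 2.5e-06), and RBP4 overlaps FFAR4 on the opposite strand, which had a mean of 8 reads in DMSO and 3.67 after fostamatinib. The library kit keeps strand, but whether counting used it is not given in the sources used here.

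AHSG (ENSG00000145192, GRCh37 chr3:186330849-186339107, plus strand) is fetuin-A, which binds calcium phosphate and prevents its deposition in soft tissue. Levels were 5.63, 5.53 and 5.35 log2 CPM in DMSO and 5.94, 5.78 and 5.80 after fostamatinib. The first DMSO sample came closest to the fostamatinib group, and AHSG rose by 0.34 (SE 0.065, 95% interval 0.21 to 0.47, adjusted p = 3.8e-05). FETUB, its relative, was not analysed here.

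SERPINA1 (ENSG00000197249, GRCh37 chr14:94843084-94857030, minus strand) encodes alpha-1 antitrypsin, the main plasma inhibitor of neutrophil elastase. DMSO samples agreed closely at 4.38, 4.42 and 4.37 log2 CPM, while fostamatinib samples measured 4.82, 5.16 and 4.67. The second fostamatinib sample was high, and the SD of 0.247 after fostamatinib was the largest among the called carriers. SERPINA1 rose by 0.49 (SE 0.088, 95% interval 0.32 to 0.67, adjusted p = 1.4e-05), and without single samples the change ran from 0.36 to 0.60.

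AMBP (ENSG00000106927, GRCh37 chr9:116822407-116840608, minus strand) encodes a precursor that is cut into alpha-1-microglobulin, a heme and small-molecule binder, and bikunin, a protease inhibitor. It measured 3.04, 3.16 and 3.08 log2 CPM in DMSO and 4.16, 4.12 and 4.03 after fostamatinib. All fostamatinib samples were far above DMSO, and AMBP rose by 1.01 (SE 0.10, 95% interval 0.81 to 1.21, adjusted p = 1.7e-10), a change close to that of GC. Without DMSO sample 1, fostamatinib sample 1 or fostamatinib sample 2 the estimate for GC was the higher of the pair. The heavy chains that bikunin is coupled to are made from ITIH genes, of which ITIH2 and ITIH4 were measured and ITIH1, ITIH3 and ITIH5 were not analysed here. ITIH2 fell by 0.46 (SE 0.18, adjusted p = 0.0314), a call lost without DMSO sample 1 or 3 or fostamatinib sample 1 or 2 (adjusted p = 0.0746 to 0.0848), and ITIH4, with a mean of 8.33 reads in DMSO and 6.33 after fostamatinib, had a log2 fold change of -0.29 that did not pass the test. AMBP minus ITIH2 moved from 1.01 ± 0.13 to 2.48 ± 0.20 log2 units (SD, n = 3). The exact permutation p was 0.10, the smallest possible. That separation had to follow, as AMBP lay higher and ITIH2 lower after fostamatinib, each without overlap, so it adds nothing to the 2 changes.

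**Figure D2:**
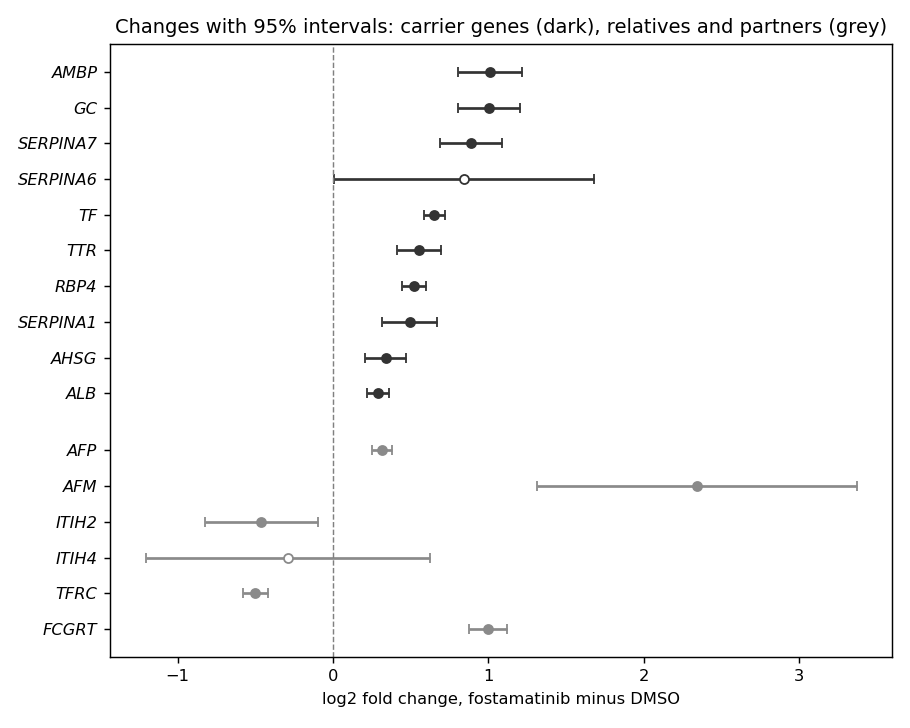
Log2 fold change (fostamatinib minus DMSO, horizontal axis) with its 95% interval for the 10 carrier genes (dark) and for 6 relatives and partners (grey); filled dots passed the test (adjusted p under 0.05). SERPINA6 and ITIH4 are the open dots, TFRC and ITIH2 lie below 0, and the intervals of GC and AMBP lie wholly above that of ALB.

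The 10 genes differ greatly in level. Together they took 0.162% to 0.165% of the reads in DMSO and 0.221% to 0.237% after fostamatinib, and ALB, TF and RBP4 made up 91.9% to 93.0% of these. Per kilobase of coding sequence, the order in DMSO was RBP4 (401 CPM per kb), ALB (349), TF (302), TTR (58.5), AHSG (41.3), SERPINA1 (16.7), AMBP (8.09), SERPINA7 (7.71), GC (6.56) and SERPINA6 (0.443). AMBP and SERPINA7 overlapped in their samples, and the other neighbours in this order did not. After fostamatinib TF (475) passed ALB (426) and stood second to RBP4 (575), without overlap between the samples of TF and ALB. SERPINA7 (14.2) and GC (13.1) then overlapped, and AMBP (16.3) was separate from both. The order depends on the length used. The TF representative transcript is annotated at 20166 bases against 2094 coding bases, and per kilobase of whole transcript TF had 31.3 CPM in DMSO and stood behind ALB, RBP4 and TTR. On that scale ALB (279) passed RBP4 (226) in DMSO, and GC (5.54) passed SERPINA7 (4.07). After fostamatinib the mean of SERPINA1 (9.93) stood below those of AMBP (13.6) and GC (11.1). The SERPINA1 samples (8.50 to 11.9) overlapped those of GC (10.5 to 11.8) but not those of AMBP (12.9 to 14.2). The whole-transcript alternative was chosen after seeing the data. Per kilobase of the longest annotated transcript of each gene, TF instead stood above TTR. The means were 31.3 against 27.0 CPM in DMSO and 49.3 against 39.6 after fostamatinib. All lengths came from a later GENCODE version than the one on which reads were counted. The effect of that mismatch on the order was not tested.

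**Figure D3:**
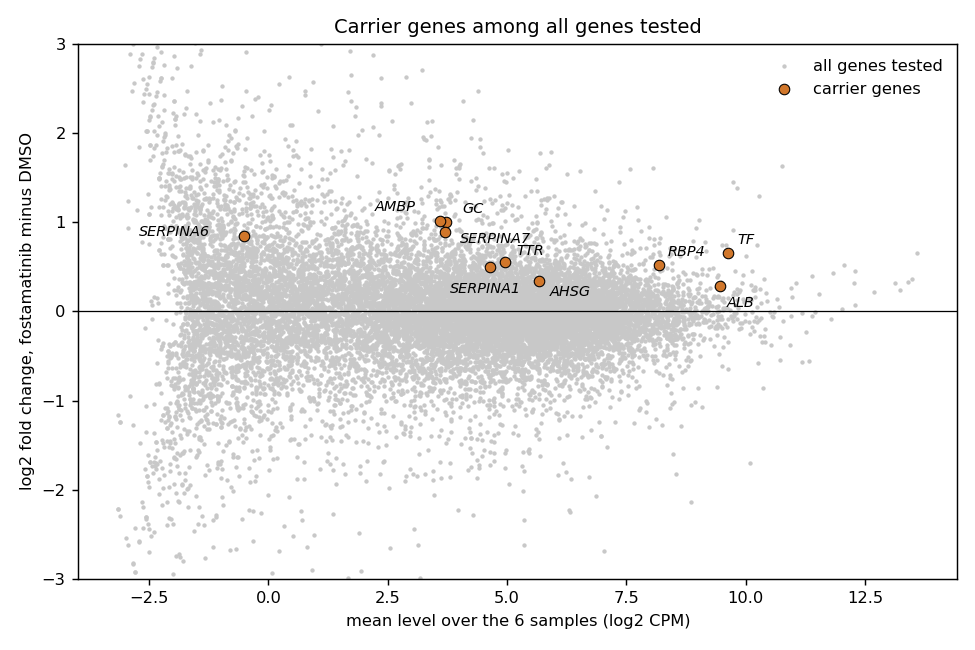
Log2 fold change (fostamatinib minus DMSO, vertical axis) against the mean log2 CPM over the 6 samples for all 16305 genes (grey) and the 10 carrier genes (orange); the axis ends at 3, and 54 genes lie beyond it. The carrier genes lie above 0 along the whole range of levels, from SERPINA6 among genes with few reads to TF and ALB among those with many.

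The remaining carriers and binding proteins of plasma did not share a direction. Of 16 listed, 11 were measured, 3 rose, 5 fell and 3 did not pass the test. Their median log2 fold change was -0.19, and over all genes 23.3% were called higher and 24.5% lower. SELENOP, the selenium carrier selenoprotein P, rose by 1.60 (SE 0.051), APOM, which carries sphingosine 1-phosphate, by 1.21 (SE 0.28) and APOH, a phospholipid binder, by 0.38 (SE 0.073). LBP, the lipopolysaccharide-binding protein, fell by 1.78 (SE 0.21), HP, the hemoglobin scavenger haptoglobin, by 0.91 (SE 0.061) and CP, the copper-carrying ceruloplasmin, by 0.48 (SE 0.052). The other falls, of ORM1 and LRG1, by 0.26 and 0.33, did not pass the test without the mean-variance trend (adjusted p = 0.0882 and 0.0594). LBP, HP, CP, ORM1 and LRG1 are known as acute-phase proteins. So are SERPINA1 and the fibrinogen chains FGA (1.29), FGB (0.74) and FGG (0.69), which rose. Reads of HP could be shared with a near-identical gene copy. Within the samples ALB minus HP went from 3.36 ± 0.083 to 4.56 ± 0.019 and SERPINA1 minus HP from -1.57 ± 0.11 to -0.16 ± 0.22 (SD, n = 3), each without overlap. Both separations had to follow, as ALB and SERPINA1 lay higher and HP lower without overlap.

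Of 12 other plasma serpins, 5 were measured and 4 rose, where 23.3% of all genes were called higher. SERPINF2, alpha-2-antiplasmin, rose by 3.18 (SE 0.091), SERPIND1, heparin cofactor II, by 1.34 (SE 0.089), and SERPINA5, the protein C inhibitor, by 1.26 (SE 0.094), each more than any of the 3 carrier serpins. SERPINF1 rose by 0.61 (SE 0.20), a call lost without DMSO sample 2 (adjusted p = 0.0901) or fostamatinib sample 2 (0.0768), and SERPING1 did not pass the test. SERPINA3 was not analysed here.

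Genes that act on the cargo moved in several directions, beside 23.3% of all genes called higher and 24.5% called lower. In iron handling 3 of 7 measured genes rose and 4 fell. SLC40A1, the iron exporter ferroportin, rose by 1.07 (SE 0.063), FTL, ferritin light chain, by 0.52 (SE 0.031) and HFE, which binds the transferrin receptor, by 0.38 (SE 0.087). STEAP3, the endosomal iron reductase, fell by 0.63 (SE 0.056), TFRC by 0.50 and SLC11A2, an iron importer, by 0.39 (SE 0.051), so 3 genes of iron uptake were lower while TF was higher. The remaining fall, of FTH1, ferritin heavy chain, by 0.086, did not pass the test under 7 of the alternatives, with adjusted p up to 0.442 (without DMSO sample 1). TFR2 was not analysed here. In retinoid handling 4 of 6 measured genes rose, among them the retinoic acid receptor RARB by 2.09 (SE 0.29), the retinol dehydrogenase RDH10 by 0.47 (SE 0.095) and the retinal reductase DHRS3 by 0.45 (SE 0.063). RARG, also called higher, lost its call without DMSO sample 1 or 3 or fostamatinib sample 2 (adjusted p = 0.145 to 0.161) and without the mean-variance trend (0.168). CRABP2, a retinoic acid binding protein, fell, from a mean of 5.33 reads to 0.667, a call lost without DMSO sample 2 or 3 or fostamatinib sample 2 (adjusted p = 0.0721 to 0.171). STRA6, the receptor of RBP4, was not analysed here.

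In thyroid hormone handling 4 of 5 measured genes rose and 0 fell. For the lists in this paragraph, the shares over all genes were 23.3% called higher and 24.5% called lower. The deiodinase DIO2 rose by 1.61 (SE 0.096) and the receptor THRB by 0.94 (SE 0.071), while DIO1 was called higher from 1, 0 and 0 reads in DMSO and 3, 10 and 10 after fostamatinib. Among genes of glucocorticoids and vitamin D, 2 of 6 rose and 1 fell. CYP27A1, a sterol and vitamin D hydroxylase, rose by 0.68 (SE 0.083) and NR3C1, the glucocorticoid receptor, by 0.53 (SE 0.048), and FKBP5, a well-known target of that receptor, fell by 1.01 (SE 0.14). All 8 listed uptake receptors of plasma proteins were measured, of which 3 rose and 1 fell. FCGRT, the neonatal Fc receptor that saves albumin from degradation, rose by 0.997 (SE 0.059, adjusted p = 2.4e-16), more than ALB itself, with FCGRT minus ALB going from -4.19 ± 0.063 to -3.48 ± 0.12 (SD, n = 3) without overlap. AMN, a partner of cubilin, rose by 1.54 (SE 0.15), LRP1 by 0.75 (SE 0.038), and LRP2, megalin, fell by 0.57 (SE 0.18).

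**Figure D4:**
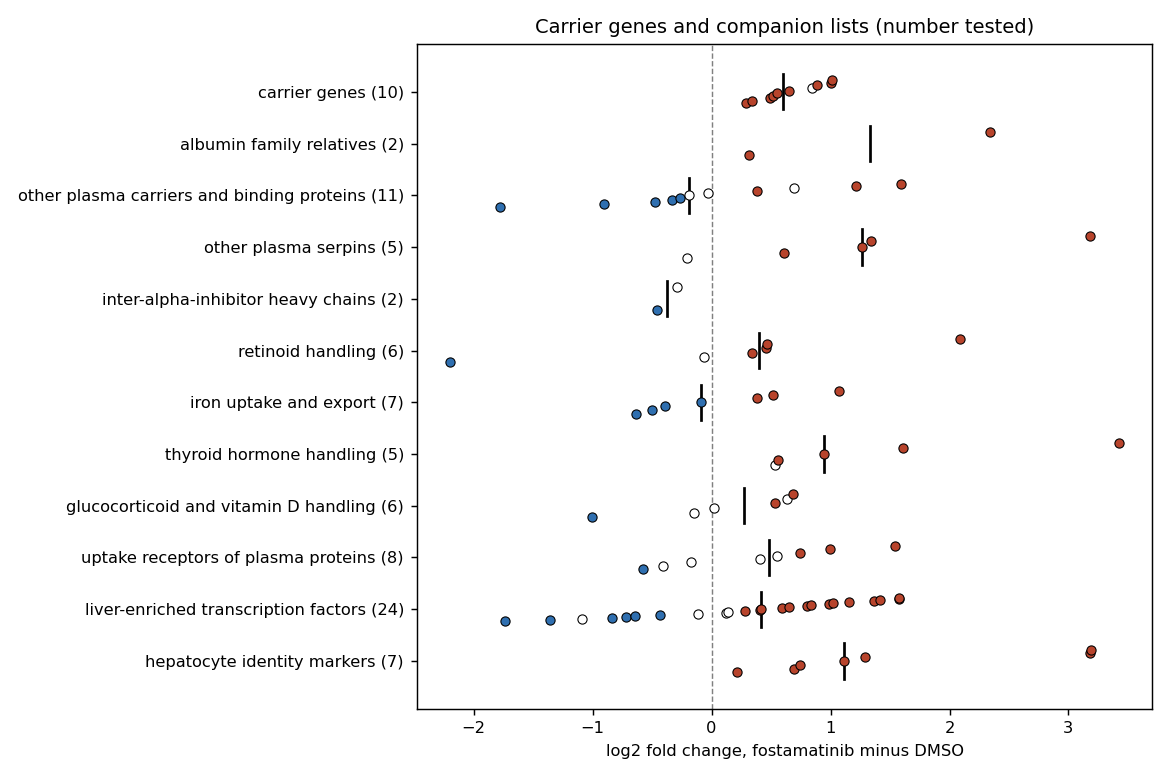
Log2 fold change (fostamatinib minus DMSO, horizontal axis) of each measured gene in the carrier list and the companion lists other than the markers of other cell types; each dot is a gene, red called higher, blue called lower, white not called, and black ticks are medians. The carrier genes lie to the right of 0, as do all 7 hepatocyte markers, while the other plasma carriers and the iron genes lie on both sides.

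Transcription factors enriched in liver were all measured, 24 of 24, of which 14 rose and 6 fell, with a median log2 fold change of 0.41. Of all genes, 23.3% were called higher and 24.5% lower. The largest rises were those of CEBPA by 1.58 (SE 0.082), the hepatocyte factor CREB3L3 by 1.58 (SE 0.048) and ONECUT1 by 1.42 (SE 0.14), and the largest falls those of CEBPD by 1.74 (SE 0.062), the bile acid receptor NR1H4 by 1.36 (SE 0.17) and CEBPB by 0.83 (SE 0.053). The C/EBP family was thus split, with CEBPA higher and CEBPB and CEBPD lower. For the HNF4 and FOXA factors, whose elements were searched in the promoters and which were chosen for that reason after their values were seen, HNF4A rose by 1.02 (SE 0.039) and FOXA3 by 1.36 (SE 0.086), and HNF4G fell by 0.72 (SE 0.11). FOXA1 (0.14) and FOXA2 (-0.12) did not pass the test, though without DMSO sample 3 FOXA1 had a log2 fold change of 0.25 with adjusted p = 0.00486. DBP, a member of the list called higher, lost its call without DMSO sample 3 or fostamatinib sample 1 or 2 (adjusted p = 0.0909 to 0.157) and without the mean-variance trend (0.0657). The part of these factors in the carriers' rise was not tested.

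Genes next to the carriers on the chromosome did not move in a single direction. Within 200000 bases of the carrier genes lie 37 other measured genes, of which 8 rose, 9 fell and 20 did not pass the test. These shares are close to those over all genes, 23.3% called higher and 24.5% lower. The neighbours' median log2 fold change was -0.08. The neighbours called higher included the relatives AFP and AFM and the serpin SERPINA5, which share a cluster with ALB and with SERPINA1 and SERPINA6. The others were RASSF6 near ALB, KNG1 and EIF4A2 near AHSG, and ZNF618 (0.74) and KIF12 (1.25) near AMBP.

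**Figure D5:**
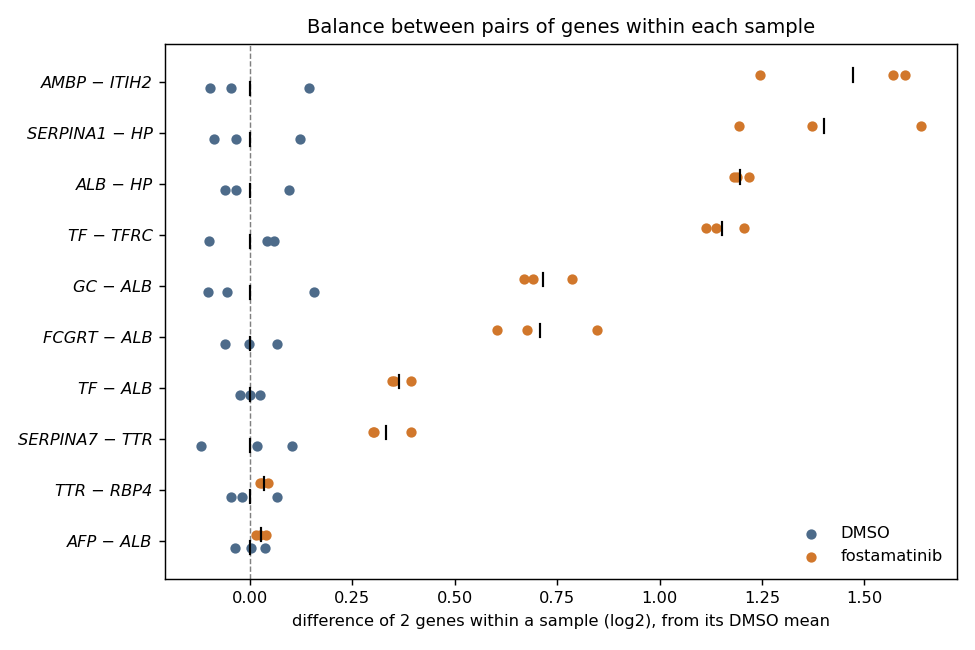
Difference between 2 genes within each sample (log2, horizontal axis), drawn from its DMSO mean, for 10 pairs; dots are samples and black ticks group means. The groups overlap for TTR − RBP4 and AFP − ALB, with shifts of 0.033 and 0.026, whereas the fostamatinib samples of the other 8 pairs lay to the right of all DMSO samples. For TF − TFRC, AMBP − ITIH2, ALB − HP and SERPINA1 − HP this had to follow, as the first gene rose and the second fell, each without overlap.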

How the data were processed

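Reads of 3 DMSO and 3 fostamatinib samples were mapped by the authors to hg19 with HISAT and counted with featureCounts on GENCODE v.22; versions of both tools are not given in the sources used here. The authors removed genes with read counts under 5 in at least 2 samples of each group and applied TMM normalization. The deposited values are log2 CPM, made by the authors from each count plus 0.5 and the TMM-scaled library size, as the values show. Reads were recovered from them, with 100% of the values within 0.05 of a whole number. The filter leaves out reads on removed genes, so depths cover 16305 genes (1 gene was listed 7 times with equal values and used as a single gene). TMM factors were 0.994 to 1.01.

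Linear models were fitted to all genes with limma 3.58.1 in R 4.3.3 (lmFit, eBayes with a mean-variance trend, 2-sided, Benjamini-Hochberg over all genes, called at adjusted p under 0.05), and the code was tested on simulated data. Fold changes are on the log2(count + 0.5) scale and understate those of genes with few reads. Standard errors borrow strength across genes: without the trend, adjusted p-values of the 9 called carriers ran from 0.000409 to 0.0349. Tables and figures used Python 3.11.15, numpy 2.4.6, pandas 2.3.3, scipy 1.17.1 and matplotlib 3.10.9. Gene coordinates and lengths are from GRCh37 with GENCODE version 44, in which 98.7% of identifiers were found.

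Carrier genes, companion lists and pairs of genes were chosen with earlier results of these data known. Named were all carriers, their relatives, receptors and partners, and up to 3 rises and 3 falls of largest size per list. Some genes that meet this rule or relate to the elements searched are not reported here. The alternatives were limma-voom, no trend, RLE or library-size scaling, a minimum of 10 reads in every sample, a replicate block, omission of single samples and a test against a 2-fold change. The 3 samples per group limit the precision, and an exact test cannot go below p = 0.10.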

Additional observations from a re-analysis of the deposited data

How the results depend on the processing

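The 9 carrier genes called higher remained called, with 0 called lower, under limma-voom, without the trend, with RLE or library-size scaling, with a minimum of 10 reads, under the replicate block and without each of the 6 samples. The test against a 2-fold change called 0 carriers higher in place of 9, and 295 genes in place of 7794, as it asks for a larger change. Counts of genes called were otherwise 6382 without the trend, 7791 with voom, 7789 and 7783 under the other scalings and 7321 with at least 10 reads. Without single samples they ran from 6958 to 7480 and the carriers' median log2 fold change from 0.55 to 0.63. The replicate block called 7977 genes and the same count of 9 carriers higher. Correlations of same-numbered samples' deviations were -0.021 to 0.037 over 12249 genes, and 2 of 6 samples correlated best with their own number. No shared deviation of same-numbered samples was thus seen. Whether the samples were handled in numbered pairs cannot be told from these values. Depth limits SERPINA6, AFM and DIO1. Without single samples the adjusted p of SERPINA6 reached 0.361.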
